A study of Mus musculus with 51 samples.

Results

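The semaphorins, plexins and neuropilins were followed here as 31 genes, 20 semaphorins, 9 plexins and 2 neuropilins, chosen by gene symbol from the 24421 genes in the count files. Each of the 31 symbols was found. RNA was measured in 51 libraries of the prefrontal cortex of 17 adult male C57BL/6J mice, with 3 preparations from each mouse. Astrocytes were cells held on magnetic beads against the astrocyte antigen ACSA2, microglia were cells held on beads against CD11b from what the first beads left, and total homogenate was unsorted tissue. The 8 control mice breathed air and were injected with saline and pyrazole. The 9 mice of chronic intermittent ethanol exposure (CIE) were kept in ethanol vapor, at 15 to 20 mg per liter of air, for 16 h of each exposure day in 4 weekly cycles, and were injected with 1.6 g/kg ethanol and pyrazole. Pyrazole, an inhibitor of alcohol dehydrogenase, was given at 1 mmol/kg to both groups, so a comparison of the groups holds no mouse without it. The beads select cells by a surface antigen and do not remove every other cell type, and both groups held male mice of one inbred strain.

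Semaphorins are secreted or membrane-bound guidance ligands that attract or repel axons, glial processes and migrating cells. Plexins are their receptors, whose intracellular domains act on small GTPases and the cytoskeleton, and neuropilins are co-receptors that most class 3 semaphorins need and that also bind VEGF. In the adult cortex these genes are known for roles at synapses, in oligodendrocyte precursor migration and myelination, in blood vessels and in microglia.

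Counts assigned to genes ranged from 2082289 to 10041788 in astrocytes, from 571878 to 6026453 in microglia and from 5042926 to 15594154 in total homogenate. Of 12 astrocyte markers (highest: Slc1a2 and Slc1a3), 11 were higher in control astrocytes than in control homogenate. Each of 12 microglia markers (Csf1r among them) was higher in control microglia, and each of 12 neuron markers (Camk2a and Slc17a7 in homogenate) was lower in both bead preparations. The astrocyte preparation also held RNA of other cells: each of 12 oligodendrocyte markers (Cnp among them) was higher there than in homogenate (median 4.10 on the log2 scale). Their summed level was 17900 to 25360 CPM in control and 18690 to 26680 CPM in CIE astrocytes, against 11910 to 21050 and 11200 to 18140 CPM for the astrocyte markers. Microglia markers (12 of 12), endothelial markers (12 of 12, highest Slco1c1 and Abcb1a), mural cell markers (6 of 8, Vtn and Rgs5), oligodendrocyte precursor markers (4 of 8, Olig1 and Sox10) and border macrophage and monocyte markers (8 of 12, Mrc1 and F13a1) were higher in control astrocytes than in homogenate too. In control microglia 10 of 12 oligodendrocyte markers, 10 of 12 endothelial markers, 5 of 8 mural cell markers, 12 of 12 border macrophage and monocyte markers and 10 of 11 neutrophil markers (Csf3r and Ngp) were higher than in homogenate. The oligodendrocyte precursor markers were mostly not: 1 of 8 was higher in control microglia and 4 were lower (median -1.18 on the log2 scale). In control astrocytes 1 of these 8 was lower. None of these markers was at 0 in every library of a group. Of the neutrophil markers, Csf3r was at 732 ± 134 CPM and Ngp at 182 ± 460 CPM over the microglia libraries (SD, n = 17). How far the levels of that list came from neutrophils was not tested.

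The levels of the families are given first. Levels are given as CPM per kilobase, that is counts scaled to CPM (reads per 1e+06 counted) in common over the 51 libraries, divided by the length of the gene's exons, so that genes can be compared. In control mice the semaphorins had sums of 233 ± 14.0 CPM per kilobase in the astrocyte libraries, 171 ± 23.2 in those of microglia and 220 ± 23.5 in those of homogenate (SD, n = 8). The plexins summed to 174 ± 16.3, 240 ± 24.2 and 142 ± 11.2 CPM per kilobase, and the neuropilins to 12.01 ± 2.83, 30.7 ± 5.05 and 8.53 ± 1.16. The mean plexin and neuropilin sums were highest in microglia. In these bulk preparations, fewer cells of a type and less RNA per cell cannot be told apart.

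**Figure D1:**
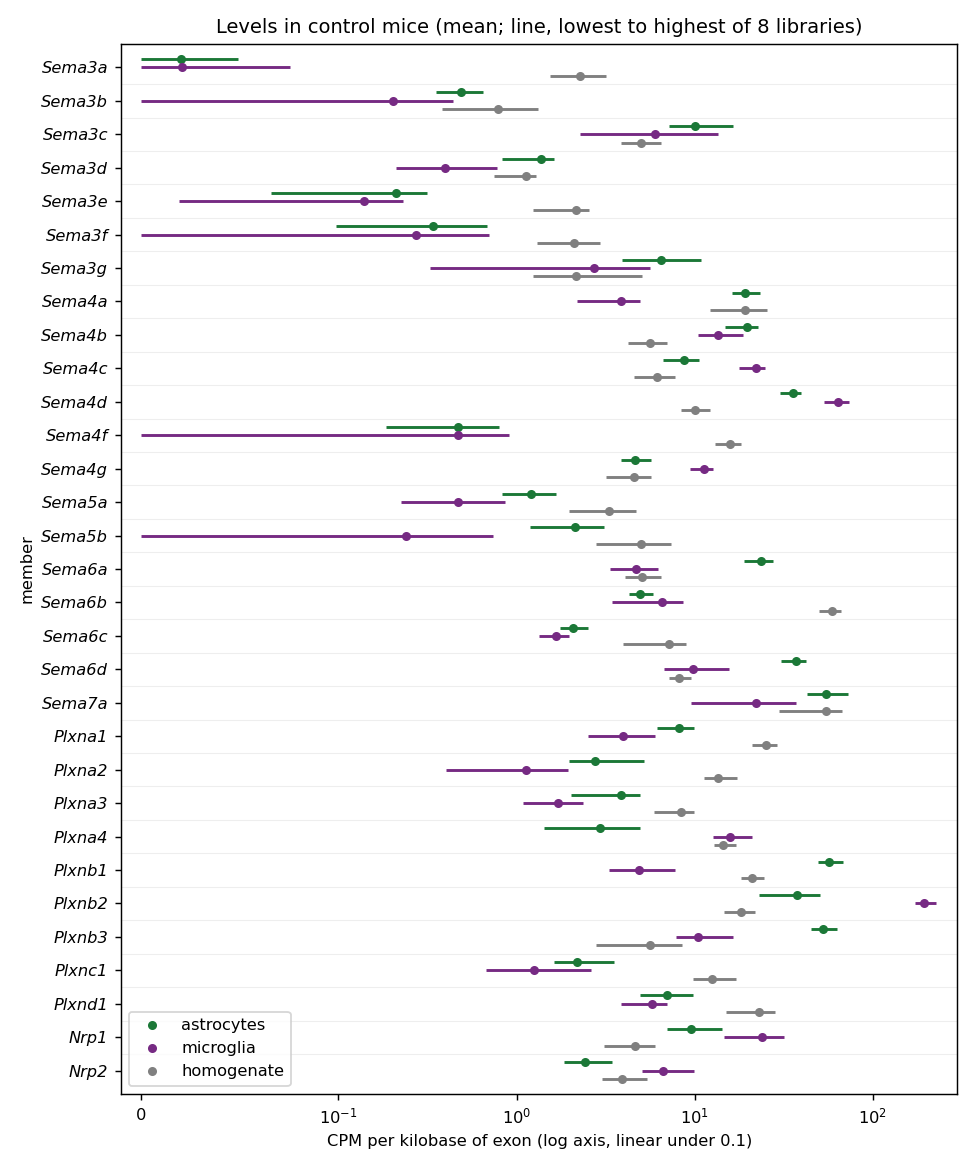
Level of each of the 31 genes in control mice, in CPM per kilobase of exon on a log axis that is linear under 0.1; points are means and lines run from the lowest to the highest of 8 libraries of each preparation. Plxnb2 in microglia stands at 195 CPM per kilobase, and Sema3a is near 0 in both bead preparations but at 2.27 in homogenate.

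In control astrocytes 11 of the 31 genes were higher than in control homogenate and 15 were lower (edgeR, adjusted p under 0.05). Among the 14379 genes tested, 36.2% were higher and 40.8% were lower. In control microglia 8 of the 31 were higher than in homogenate and 18 were lower, against 37.5% and 46.1% of genes tested. Between the bead preparations 17 of the 31 were higher in astrocytes and 8 were higher in microglia, against 34.1% and 35.7% of genes tested. On library totals without scaling factors the last split was 20 to 7. Of the 31 genes, 13 were lower in both bead preparations than in homogenate: Sema3a, Sema3e, Sema3f, Sema4f, Sema5a, Sema5b, Sema6b, Sema6c, Plxna1, Plxna2, Plxna3, Plxnc1 and Plxnd1. Another 6, Sema4b, Sema4c, Sema4d, Plxnb2, Plxnb3 and Nrp1, were higher in both than in homogenate. Both comparisons use the same homogenate libraries, and the share of all genes lower or higher in both is not given here. The joint counts therefore only list the genes and are not a result about the members. Nrp2 and Sema4g were higher in microglia but not in astrocytes, and Plxnb1 was higher in astrocytes and lower in microglia.

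Among the secreted class 3 ligands, Sema3a, a repellent of cortical axons, was a gene of the homogenate. It stood at 2.27 ± 0.489 CPM per kilobase (SD, n = 8) in control homogenate, and its 8 libraries summed to 12 counts in control astrocytes and 7 in control microglia. It was at 0 in 3 control astrocyte and 5 control microglia libraries. Sema3e, a ligand of Plxnd1, was lower by 3.39 and 4.10 on the log2 scale in astrocytes and microglia than in homogenate, and Sema3f, which signals through Nrp2, was lower by 2.75 and 2.54. The opposite held for Sema3c and Sema3g in astrocytes, which were 1.99-fold (log2 0.99, SE 0.25, adjusted p = 0.000478, edgeR) and 2.93-fold (log2 1.55, SE 0.31, adjusted p = 1.4e-05) higher there than in homogenate. In microglia their log2 differences from homogenate were 0.36 (SE 0.27) and 0.48 (SE 0.35), which did not pass the test. Endothelial markers (12 of 12, median log2 1.84) and mural cell markers (6 of 8, median 2.61) were also higher in control astrocytes than in homogenate. The part of these cells in the levels of Sema3c and Sema3g was not tested. Sema3b and Sema3d were lower in microglia than in homogenate (log2 -2.18 and -1.67), and their differences between astrocytes and homogenate, -0.69 (SE 0.33) and 0.28 (SE 0.19), did not pass.

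The membrane-bound class 4 ligands split between glia and homogenate. Sema4d, a ligand of the plexin B receptors that is also known from immune cells, was the second member in microglia. Its control microglia libraries ran from 53.1 through a median of 64.6 to 73.7 CPM per kilobase, above each of the other members but Plxnb2. It was 6.31-fold higher in microglia than in homogenate (log2 2.66, SE 0.09, adjusted p = 7.97e-31, edgeR) and 3.52-fold higher in astrocytes (log2 1.81, SE 0.09). Sema4c was 3.60-fold higher in microglia than in homogenate and Sema4g 2.46-fold higher, whereas Sema4b was higher by 3.52-fold in astrocytes and 2.39-fold in microglia. Sema4f went the other way, at 15.9 ± 1.87 CPM per kilobase in homogenate against 0.470 ± 0.217 in astrocytes and 0.472 ± 0.303 in microglia (SD, n = 8).

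Sema4a, known as a ligand in T cell activation and in vascular and retinal biology, was as high in astrocytes as in homogenate. The control libraries ran from 16.3 to 23.3 CPM per kilobase (median 19.2) in astrocytes, from 12.2 to 25.4 (median 19.9) in homogenate, and from 2.19 to 4.94 (median 3.97) in microglia. The astrocyte and homogenate libraries overlapped, with a log2 difference of -0.00 (SE 0.17), and the microglia libraries lay below both. Sema4a was 5.13-fold higher in astrocytes than in microglia (log2 2.36, SE 0.20, adjusted p = 1.66e-15, edgeR).

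Of the class 5 ligands, which carry thrombospondin repeats, both were genes of the homogenate first and of astrocytes second. Control libraries held Sema5b at 2.79 to 7.39 CPM per kilobase (median 5.28) in homogenate, 1.19 to 3.09 (median 2.165) in astrocytes and 0 to 0.734 (median 0.211) in microglia. The microglia libraries did not overlap with those of astrocytes and held 30 Sema5b counts in all. Sema5b was lower by 1.22 (SE 0.23) in astrocytes and by 4.36 (SE 0.35) in microglia than in homogenate on the log2 scale. Sema5a stood at 3.30 ± 0.965, 1.21 ± 0.301 and 0.472 ± 0.286 CPM per kilobase (SD, n = 8) in homogenate, astrocytes and microglia.

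The class 6 ligands, transmembrane partners of the plexin A receptors, fell into a pair enriched in astrocytes and a pair enriched in homogenate. Sema6a and Sema6d were 4.64-fold and 4.54-fold higher in astrocytes than in homogenate (log2 2.21, SE 0.16, and 2.18, SE 0.14). Their differences between microglia and homogenate did not pass the test, and with the mouse as a replicate block Sema6d did (log2 0.25, adjusted p = 0.0321, edgeR, against 0.0559 without the block). Sema6b, which had the highest mean of the members in homogenate, ran from 49.8 through 59.6 to 66.5 CPM per kilobase there, overlapped with Sema7a, and was 12.2-fold lower in astrocytes and 9.07-fold lower in microglia. Sema6c was 3.43-fold and 4.43-fold lower.

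Sema7a, a ligand anchored in the membrane by a lipid that acts through Plxnc1 and integrins, was among the 3 highest members in both astrocytes and homogenate. Its control libraries ran from 42.8 to 72.4 CPM per kilobase (median 49.97) in astrocytes, from 29.8 to 67.6 (median 59.3) in homogenate and from 9.54 to 37.4 (median 22.7) in microglia. Astrocytes and homogenate overlapped, with a log2 difference of 0.00 (SE 0.21), and Sema7a was 2.41-fold lower in microglia than in homogenate (adjusted p = 1.07e-06, edgeR). Its receptor Plxnc1 was at 12.6 ± 2.29 CPM per kilobase in homogenate and at 2.19 ± 0.652 and 1.25 ± 0.684 in astrocytes and microglia (SD, n = 8).

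The 3 plexin B receptors were higher in control astrocytes than in control homogenate, and Plxnb2 was higher still in microglia. Plxnb2, a receptor of class 4 semaphorins, ran from 174 through a median of 187 to 227 CPM per kilobase in control microglia, without overlap with any other member. It made up 81.2 ± 1.74% of the plexin sum there (SD, n = 8), against 21.5 ± 5.49% in astrocytes and 12.8 ± 1.25% in homogenate. Plxnb2 was 10.7-fold higher in microglia than in homogenate (log2 3.41, SE 0.16, adjusted p = 5.52e-26, edgeR) and 2.07-fold higher in astrocytes (log2 1.05, SE 0.14). Plxnb1, the main receptor of Sema4d, ran from 49.4 through 55.1 to 68.2 CPM per kilobase in control astrocytes, overlapped there with Sema7a and Plxnb3, and was 11.7-fold higher than in microglia (log2 3.55, SE 0.14). Plxnb3, a receptor of Sema5a, ran from 44.9 through 52.0 to 63.4 CPM per kilobase in control astrocytes and was 9.44-fold higher there than in homogenate (log2 3.24, SE 0.19, adjusted p = 4.09e-21, edgeR).

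Of the genes higher in the astrocyte preparation, Plxnb3, Plxnb1, Sema4d, Sema6a and Sema6d are also known from oligodendrocytes. The summed oligodendrocyte markers stood at 1065 to 3844 CPM in control homogenate and 2309 to 8154 CPM in control microglia, below the 17900 CPM or more of control astrocytes. The part of these cells in the levels of those 5 genes was not tested. In control mice the summed microglia markers stood at 1633 to 6703 CPM in astrocytes and 687 to 1009 CPM in homogenate. In control microglia they stood at 30380 to 42690 CPM. Sema4c, Sema4d, Plxnb2 and Nrp1 were higher in astrocytes than in homogenate and higher still in microglia. The part of microglia in their astrocyte levels was not tested.

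The plexin A receptors, which pair with neuropilins for class 3 and alone for class 6 ligands, were mostly homogenate genes. Plxna1, the third member in homogenate, ran from 21.1 through 25.9 to 29.0 CPM per kilobase in control libraries, 3.06-fold above astrocytes and 6.49-fold above microglia. Plxna2 and Plxna3 were lower in both bead preparations, by 2.30 and 1.11 in astrocytes and by 3.52 and 2.27 in microglia on the log2 scale. Plxna4 differed from them. It stood at 15.8 ± 2.83 CPM per kilobase in microglia and 14.5 ± 1.64 in homogenate (SD, n = 8; log2 difference 0.12, SE 0.18), and it was 5.27-fold lower in astrocytes than in microglia. Plxnd1, the vascular and neuronal receptor of Sema3e, was at 23.1 ± 4.43 CPM per kilobase in homogenate, 7.04 ± 1.65 in astrocytes and 5.79 ± 1.21 in microglia.

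Both neuropilins were higher in microglia than in astrocytes. Nrp1, co-receptor of Sema3a and of VEGF, ran from 14.7 through 24.2 to 31.7 CPM per kilobase in control microglia, where it overlapped with Sema7a and Sema4c. It was 5.20-fold higher in microglia than in homogenate (log2 2.38, SE 0.17) and 2.07-fold higher in astrocytes. Nrp2, co-receptor of Sema3f, was 1.69-fold higher in microglia and 1.60-fold lower in astrocytes than in homogenate. Endothelial and border macrophage markers were also higher in both bead preparations than in homogenate, and their part in the neuropilin levels was not tested.

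The next comparison asked what CIE changed within each preparation. In astrocytes 4 of the 30 members tested were lower after CIE, none was higher, and Sema3a was too low to be tested. Among the 12878 genes tested, 5.13% differed and 2.22% were lower (edgeR, adjusted p under 0.05). The 4 were 2 ligands, Sema5b and Sema4a, and 2 receptors, Plxnd1 and Plxna1. Of the 30, 19 had a negative log2 fold change, the median was -0.13 against 0.00 over all genes tested, and 12 passed an unadjusted p of 0.05, as did 21% of genes tested. Values from here on are CPM on the scaling of each preparation's own libraries.

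Sema5b, the class 5 ligand known for repelling growing neurites, separated the groups. The 8 control astrocyte libraries ran from 9.18 through a median of 17.3 to 24.3 CPM, and the 9 CIE libraries from 1.85 through 4.34 to 8.88 CPM. Each CIE library lay below each control library. Means were 16.8 ± 5.67 CPM in control (SD, n = 8) and 4.92 ± 2.27 CPM in CIE astrocytes (SD, n = 9), a log2 fold change of -1.88 (SE 0.25, adjusted p = 0.000991, edgeR), and Sema5b was called in each of 17 fits without 1 mouse. Within ranges of mouse numbers the difference of mean log2(CPM + 0.5) was -2.30 among mice 19 to 26, -1.47 among mice 35 to 41 and -0.99 among the 4 mice numbered under 10.

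Sema4a ran from 96.1 through a median of 115 to 142 CPM in control astrocytes and from 56.0 through 69.9 to 125 CPM in CIE astrocytes. Of the 9 CIE libraries, 8 lay below the lowest control library, and the exception was mouse 08. The log2 fold change was -0.60 (SE 0.13, adjusted p = 0.0142, edgeR), and Sema4a was called in each of 17 fits without 1 mouse. Its differences on the log2(CPM + 0.5) scale were -0.96 among mice 19 to 26, -0.47 among mice 35 to 41 and -0.17 among mice under 10.

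Plxnd1 ran from 40.1 through 54.1 to 78.0 CPM in control and from 26.03 through 38.4 to 50.8 CPM in CIE astrocytes, with 5 of 9 CIE libraries below the lowest control. Its log2 fold change was -0.61 (SE 0.16, adjusted p = 0.0297, edgeR). Plxna1 is a receptor that pairs with neuropilins, and it lies over the antisense gene Gm26811. Its libraries ran from 63.0 through 83.4 to 98.3 CPM in control and from 47.6 through 65.1 to 76.1 CPM in CIE astrocytes. With 4 of 9 CIE libraries below the lowest control, its log2 fold change was -0.39 (SE 0.10, adjusted p = 0.0312). Both receptors were called in 12 of 17 fits without 1 mouse: Plxnd1 missed the threshold without mouse 35, 36, 24, 25 or 26 (adjusted p 0.0539 to 0.0633) and Plxna1 without mouse 22, 36, 24, 25 or 26 (0.054 to 0.0696). Within ranges the difference of Plxna1 was -0.69 among mice 19 to 26, -0.24 among mice 35 to 41 and -0.03 among mice under 10, and that of Plxnd1 was -0.79, -0.52 and -0.30.

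**Figure D2:**
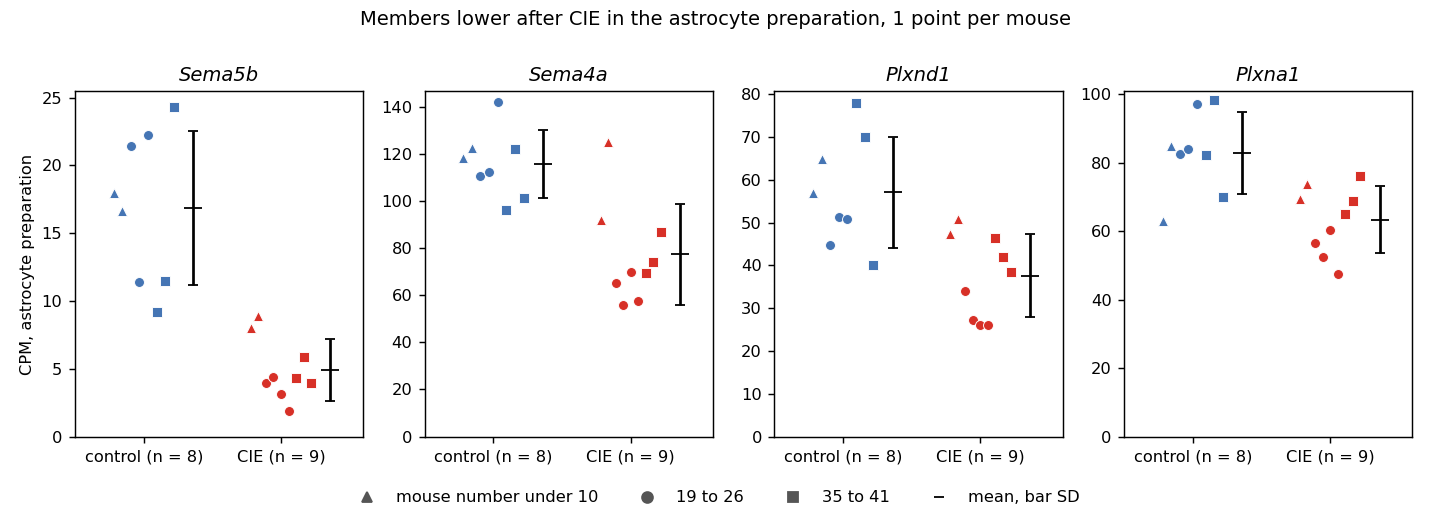
CPM in the astrocyte preparation for the 4 members that were lower after CIE, with 1 point per mouse, marker shape by range of mouse numbers, and mean with SD beside the points. The 9 CIE libraries of Sema5b lie at 8.88 CPM or less and the 8 control libraries at 9.18 or more, whereas the groups overlap for Sema4a, Plxnd1 and Plxna1.

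The other members of astrocytes did not pass the test. Plxna3 (33.7 ± 8.89 to 23.2 ± 6.97 CPM, adjusted p = 0.062, edgeR) and Sema4b (124 ± 17.9 to 96.5 ± 19.8 CPM, adjusted p = 0.0694) lay just past the threshold, and DESeq2 called both (0.0358 and 0.0359). Sema7a had a log2 fold change of 0.34 (SE 0.13, adjusted p = 0.133), and 0.36 (adjusted p = 0.00985) in a fit that also held the range of mouse numbers. The ligand Sema3c had 0.45 (SE 0.19) and Sema3f, at 1.97 CPM in control and 2.90 CPM in CIE astrocytes, 0.71 (SE 0.31). The plexins Plxnb1, Plxnb2 and Plxnb3 had -0.20 (SE 0.08), 0.03 (SE 0.14) and -0.12 (SE 0.09), and Nrp1 and Nrp2 had -0.21 (SE 0.15) and -0.07 (SE 0.12).

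Marker lists were read beside these falls. In CIE against control astrocytes 1 of 12 astrocyte markers, 1 of 12 oligodendrocyte markers, 1 of 10 neuron markers and 2 of 9 border macrophage and monocyte markers were higher, and 1 of 8 oligodendrocyte precursor markers was lower. At an unadjusted p under 0.05 there were 1, 7, 2, 5 and 2 in these lists (edgeR). Log2 fold changes were negative for 9 of 12 astrocyte (median -0.14), 8 of 10 neuron (-0.49) and 5 of 8 oligodendrocyte precursor markers (-0.21). They were positive for 9 of 12 oligodendrocyte (0.15) and 8 of 9 border macrophage and monocyte markers (0.65). None of 12 microglia, 12 endothelial, 8 mural cell and 1 neutrophil markers tested was called (edgeR; 1, 2, 0 and 0 at an unadjusted p under 0.05). The summed oligodendrocyte precursor markers were 1119 to 1799 CPM in control and 1133 to 1670 CPM in CIE astrocytes, the endothelial markers 1247 to 2269 and 912 to 2202 CPM, and the border macrophage and monocyte markers 55.0 to 214 and 80.3 to 315 CPM. The part of these cells in the falls of the 4 genes was not tested.

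Promoter windows are shown for 3 of the 4 members that were lower after CIE in astrocytes, and Plxna1 had none in the table. RefSeq gives one window for Sema5b and one for Plxnd1, and 4 alternative ones for Sema4a, of which the outermost is printed. The Sema5b window lies at chr16:35541112-35541411 on the plus strand, that of Sema4a at chr3:88461133-88461432 and that of Plxnd1 at chr6:115994956-115995255, both on the minus strand. The windows hold 300 bases around the annotated start in build GRCm38.p6, and capitals mark the GC box, read as GGGCGG or on the other strand as CCGCCC. Sema5b lies at chr16:35541145-35664732 and Plxnd1 at chr6:115954811-115995005, Sema4a at chr3:88435959-88461182 and Plxna1 at chr6:89316314-89362620, in GENCODE on GRCm38.
Sema5b: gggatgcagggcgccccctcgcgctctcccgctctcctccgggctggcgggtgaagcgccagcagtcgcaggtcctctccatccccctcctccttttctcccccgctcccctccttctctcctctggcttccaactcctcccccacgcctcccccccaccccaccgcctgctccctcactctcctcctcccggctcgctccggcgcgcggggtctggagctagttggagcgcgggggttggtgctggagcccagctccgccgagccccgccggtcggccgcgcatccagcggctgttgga
Sema4a: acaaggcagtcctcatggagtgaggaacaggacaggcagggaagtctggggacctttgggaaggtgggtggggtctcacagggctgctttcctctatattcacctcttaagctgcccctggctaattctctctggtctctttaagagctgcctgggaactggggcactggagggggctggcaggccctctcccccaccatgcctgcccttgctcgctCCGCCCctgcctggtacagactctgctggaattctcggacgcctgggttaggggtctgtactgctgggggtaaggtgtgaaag
Plxnd1: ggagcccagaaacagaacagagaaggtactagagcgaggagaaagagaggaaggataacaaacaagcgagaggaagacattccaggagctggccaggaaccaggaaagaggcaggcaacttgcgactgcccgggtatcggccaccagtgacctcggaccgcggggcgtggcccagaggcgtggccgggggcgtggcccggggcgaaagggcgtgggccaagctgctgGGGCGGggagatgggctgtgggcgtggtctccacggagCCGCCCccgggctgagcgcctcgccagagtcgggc
The Sema5b window was 73% G and C, those of Plxnd1 and Sema4a 67% and 59.7%, and the median of all windows was 52.7%. The GC box occurred 2 times in the Plxnd1 window, once in that of Sema4a and not in that of Sema5b, and 35.7% of 32851 windows hold it. The CCAAT box was searched as CCAAT and, on the other strand, as ATTGG, and 37.4% of windows hold it. The TATA box was searched as TATAAA and, on the other strand, as TTTATA, and 13.6% hold it. The E-box was searched as CACGTG, the same on both strands, and 7.15% hold it. None of these was in a window printed. These letters were only counted, and no binding was measured.

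In microglia none of the 24 members tested passed the threshold, with 3.47% of 10761 genes called (edgeR), and DESeq2 called 2, Sema4a and Plxnb3. At an unadjusted p under 0.05 there were 8 of 24, against 16.9% of genes tested. Sema3a, Sema3b, Sema3d, Sema3e, Sema3f, Sema4f and Sema5b were too low to be tested. In the self-test for this comparison 28% of genes with a true log2 change of 0.5 and 82% with a change of 1 were recovered.

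Sema4a had the smallest adjusted p of the members in microglia, with values above control where astrocytes had values below. Its libraries ran from 10.7 through a median of 18.8 to 24.4 CPM in control and from 16.3 through 28.2 to 61.8 CPM in CIE microglia, and 6 of 9 CIE libraries exceeded the highest control. The log2 fold change was 0.78 (SE 0.23, adjusted p = 0.0693, edgeR), and DESeq2 gave 0.76 (adjusted p = 0.0374). Within ranges of mouse numbers the rise was not seen in each. The difference of mean log2(CPM + 0.5) was 0.76 among mice 19 to 26, 1.03 among mice 35 to 41 and -0.19 among mice under 10. Sema4a was called in 2 of 17 fits without 1 mouse, those without 06 and 08 (adjusted p = 0.0312 and 0.032), and without the 4 mice numbered under 10 (0.97, adjusted p = 0.0222). Without the CIE microglia libraries of mouse 23, the shallowest, and mouse 41, the highest in neutrophil markers, it was 0.47 (SE 0.17, adjusted p = 0.148).

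Control microglia held Plxnb3 at 61.5 ± 15.7 CPM (SD, n = 8) and CIE microglia at 92.0 ± 25.8 CPM (SD, n = 9), a log2 fold change of 0.57 (SE 0.17, adjusted p = 0.0736, edgeR). Sema7a (65.4 ± 28.4 and 115 ± 46.8 CPM, adjusted p = 0.114) and Plxnb1 (42.1 ± 11.9 and 58.8 ± 15.5 CPM, adjusted p = 0.118) had higher means in CIE libraries, and Plxnb2 (1364 ± 185 and 1083 ± 199 CPM, adjusted p = 0.134) and Nrp1 (212 ± 43.2 and 166 ± 41.2 CPM, adjusted p = 0.221) had lower ones. In a fit that also held the range of mouse numbers Sema4a, Sema7a, Plxnb2 and Plxnb3 passed the threshold. The remaining members of microglia had log2 fold changes between -0.26 (Sema4g) and 0.59 (Sema3c), with Sema4d at -0.06 (SE 0.09) and Plxna4 at -0.24 (SE 0.21).

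Other cell markers moved in the same libraries. Of 10 neutrophil markers tested 9 were higher in CIE microglia. The summed level of the list was 604 to 1206 CPM in control (median 977) and 799 to 7462 CPM in CIE libraries (median 1074). Of 12 oligodendrocyte markers 1 was called higher and 12 had positive log2 fold changes (median 0.68), with summed levels of 2309 to 8154 CPM in control and 2545 to 10750 CPM in CIE microglia. Of 12 microglia markers 2 were called lower, and 12 had negative log2 fold changes (median -0.26). Of these markers 7 had an unadjusted p under 0.05 (edgeR). Their sums, 30380 to 42690 CPM in control and 22170 to 29430 CPM in CIE microglia, did not overlap. None of 7 oligodendrocyte precursor, 10 border macrophage and monocyte, 10 astrocyte, 7 neuron, 12 endothelial and 7 mural cell markers tested was called (edgeR; 5, 3, 0, 1, 1 and 0 at an unadjusted p under 0.05). The part of these cells in the values of Sema4a, Sema7a, Nrp1 and the plexin B genes was not tested.

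In total homogenate none of the 31 members passed, with 0.25% of 13982 genes called (edgeR), and DESeq2 called 1, Sema3c. At an unadjusted p under 0.05 there were 4 of 31, against 9.2% of genes tested. Sema3c, a class 3 ligand of neuropilins and plexins, ran from 27.2 through a median of 37.1 to 45.7 CPM in control and from 43.9 through 47.4 to 55.3 CPM in CIE homogenate. The log2 fold change was 0.46 (SE 0.10, adjusted p = 0.0759, edgeR, and 0.00498, DESeq2), with 6 of 9 CIE libraries above the highest control. Control homogenate held Plxnc1 at 104 ± 18.7 CPM (SD, n = 8) and CIE homogenate at 77.8 ± 12.5 CPM (SD, n = 9) (log2 -0.42, SE 0.12, adjusted p = 0.172).

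Sema4a and Sema5b had lower means in CIE homogenate too, without passing the test. Sema4a ran from 65.5 through 108 to 135 CPM in control and from 64.0 through 74.0 to 109 CPM in CIE homogenate (log2 -0.39, SE 0.14, adjusted p = 0.344, edgeR). Sema5b ran from 19.4 through 37.2 to 52.1 CPM in control and from 14.4 through 29.0 to 34.95 CPM in CIE homogenate (log2 -0.34, SE 0.19, adjusted p = 0.613). The groups overlapped for both. In microglia Sema5b was untested, at 0 to 4.56 CPM in control and 0 to 3.36 CPM in CIE libraries. The remaining members of homogenate had log2 fold changes between -0.28 (Nrp2) and 0.34 (Sema3f), among them Plxna1 at -0.19 (SE 0.08) and Plxnd1 at -0.15 (SE 0.14). Neutrophil markers were positive in CIE homogenate for 7 of 7 tested, none called (6 at an unadjusted p under 0.05, edgeR). Their sums were 13.5 to 42.5 CPM in control (median 32.5) and 13.6 to 836 CPM in CIE libraries (median 40.6). Border macrophage and monocyte markers were likewise positive for 7 of 7 and oligodendrocyte markers for 12 of 12, none called (4 and 5 at that p). Of 12 astrocyte markers 1 was called higher in CIE homogenate, and 8 had negative log2 fold changes. The part of these cells was not tested.

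**Figure D3:**
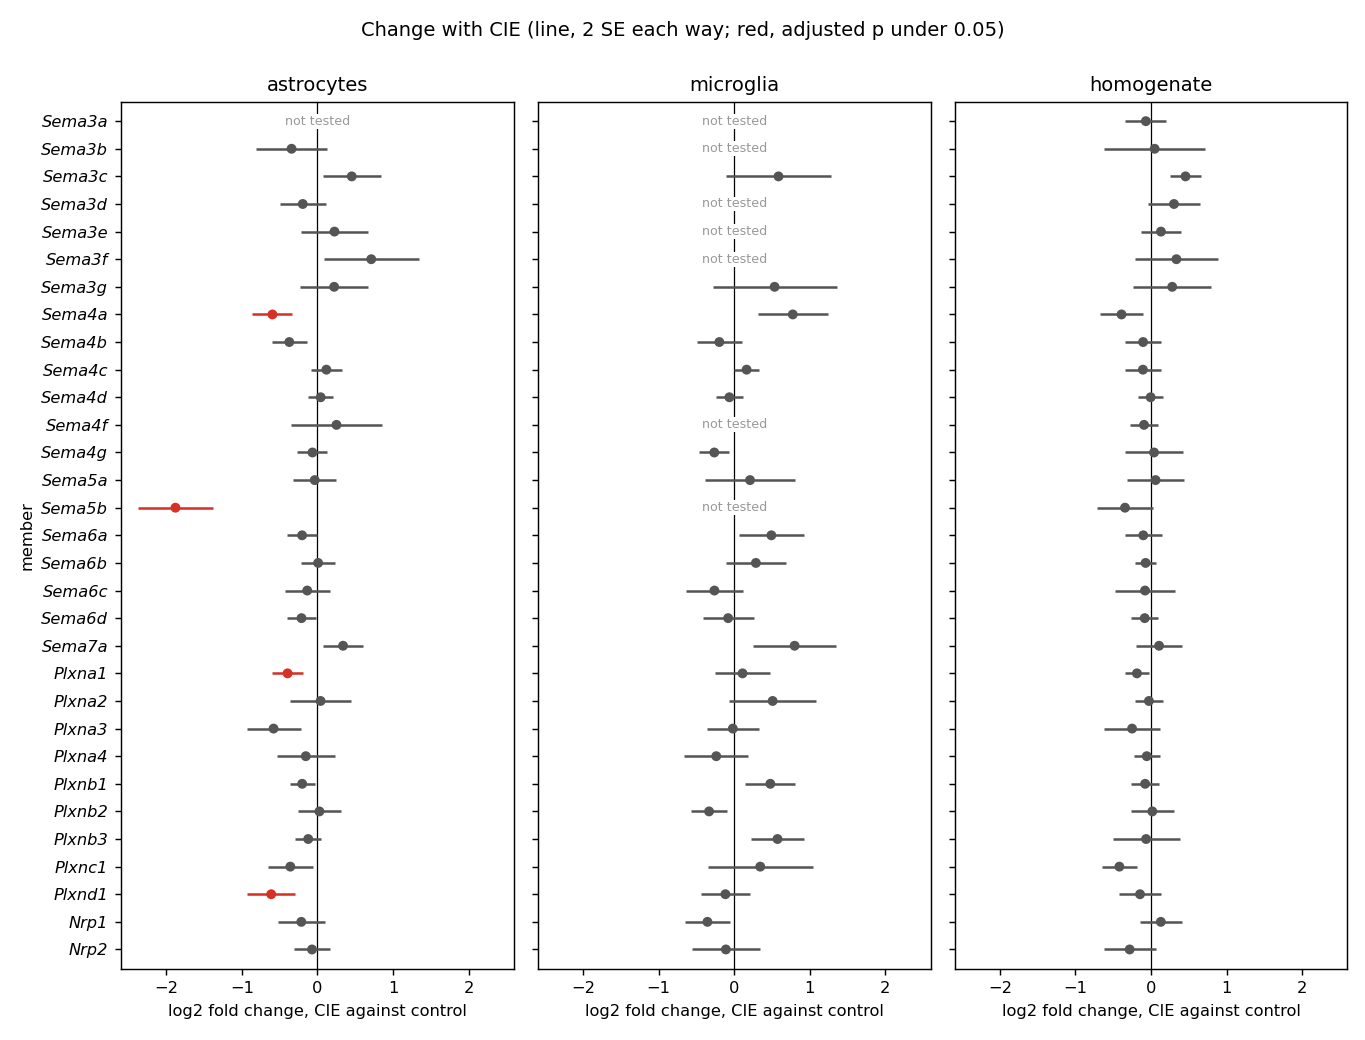
Log2 fold change of CIE against control for each member in each preparation, with lines of 2 SE each way and red where the adjusted p was under 0.05. Red points are Sema4a, Sema5b, Plxna1 and Plxnd1 in astrocytes, the line of Sema5b runs from -2.38 to -1.38, and 7 members of microglia and 1 of astrocytes were not tested.

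The responses were compared between preparations by interaction terms in 1 fit of the 51 libraries. Of the 31 members 1, Sema4a, differed between microglia and astrocytes, with 0.529% of genes called, and 1, again Sema4a, between microglia and homogenate, with 0.828%. None differed between astrocytes and homogenate, with 0.00695% called (edgeR; 2 members at an unadjusted p under 0.05), and DESeq2 called 1, Sema5b. The response of Sema4a was 1.37 higher on the log2 scale in microglia than in astrocytes (SE 0.26, adjusted p = 0.00665, edgeR) and 1.17 higher than in homogenate (SE 0.26, adjusted p = 0.0142). With the mouse as a replicate block these were 1.33 (adjusted p = 0.00968) and 1.11 (adjusted p = 0.0178). Without the microglia libraries of mice 23 and 41 they were 1.06 (adjusted p = 0.0216) and 0.87 (adjusted p = 0.0563), and without mouse 20 the difference to homogenate was 1.03 (adjusted p = 0.0705).

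For Sema5b the response in astrocytes was lower by 1.52 on the log2 scale than in homogenate (SE 0.32), which did not pass (adjusted p = 0.151, edgeR; 0.0331, DESeq2; 0.0453 without the microglia libraries of mice 23 and 41). Plxnb1 had a response 0.66 higher in microglia than in astrocytes (SE 0.18, adjusted p = 0.0603, edgeR). For Plxnd1 and Plxna1, lower after CIE in astrocytes, the differences to homogenate were -0.46 (SE 0.22) and -0.20 (SE 0.16), so a response particular to astrocytes was not shown for either.

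**Figure D4:**
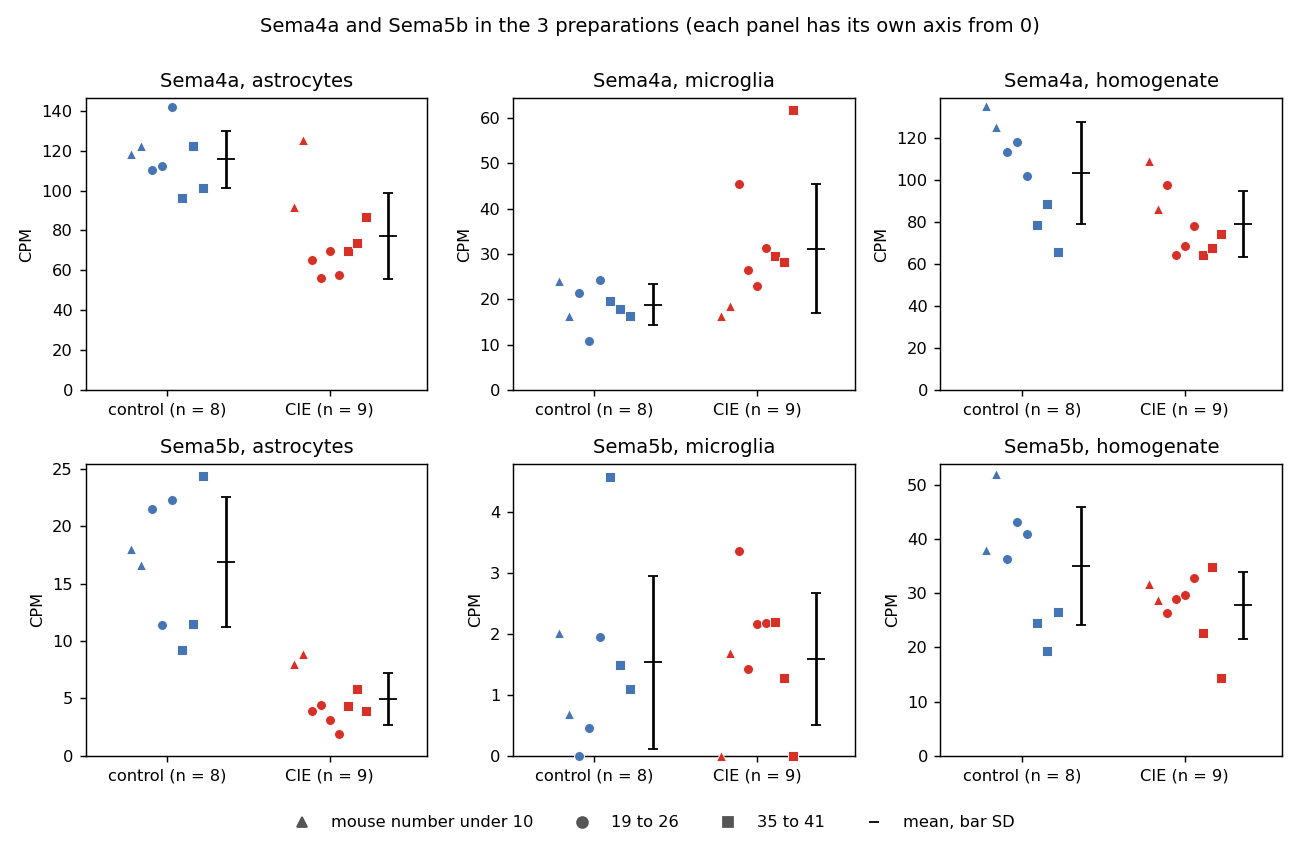
CPM of Sema4a and Sema5b in control and CIE libraries of each preparation, with 1 point per mouse, marker shape by range of mouse numbers and mean with SD beside the points; each panel has its own axis from 0. In microglia 6 of 9 CIE libraries of Sema4a exceed the highest control, and in astrocytes 8 of 9 lie below the lowest control.

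Partners of the pathway were followed as lists. Of 42 genes of signal transduction below plexins tested in astrocytes, 1 was lower and none higher: Rnd3, a small GTPase that binds plexins, had means of 18.3 ± 4.76 CPM in control (SD, n = 8) and 11.8 ± 3.10 CPM in CIE libraries (SD, n = 9), a log2 fold change of -0.67 (SE 0.17, adjusted p = 0.0258, edgeR). Of 5 VEGF ligands that bind neuropilins 1 was lower there, Vegfa, from 407 ± 80.9 to 180 ± 85.1 CPM (log2 -1.19, SE 0.23). Of 13 co-receptors and other binding partners none passed in astrocytes (3 at an unadjusted p under 0.05). In microglia Trem2, a myeloid receptor reported to bind plexin A complexes, was lower (549 ± 101 to 376 ± 56.5 CPM, log2 -0.55, SE 0.12), 1 of 11 partners tested. There Limk2, a kinase acting on cofilin, was 1 of 36 signal transduction genes and higher (log2 0.47, SE 0.11), and Vegfb was 1 of 2 VEGF ligands and lower (log2 -0.55, SE 0.12). Of all genes tested 2.22% were lower in astrocytes and 3.47% were called in microglia. In homogenate no gene of these 3 lists passed (edgeR; 2 of 15, 2 of 41 and 2 of 5 at an unadjusted p under 0.05).

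Other guidance families gave a comparison. Of 14 netrins, slits and their receptors tested in astrocytes 2 were lower, the netrin receptor Dcc (log2 -0.62, SE 0.18) and the repulsive guidance molecule Rgma (log2 -0.38, SE 0.11). Of 15 ephrins and Eph receptors 2 were lower, Ephb3 (65.6 ± 8.28 to 42.1 ± 7.35 CPM, log2 -0.64, SE 0.11) and the ligand Efnb2 (25.3 ± 5.05 to 14.7 ± 3.05 CPM, log2 -0.80, SE 0.14), and 14 of the 15 had negative log2 fold changes (median -0.25). None of either family was higher in astrocytes, where 2.22% of all genes tested were lower. In microglia none of 9 and 10 tested passed (edgeR; 2 and 4 at an unadjusted p under 0.05), and in homogenate none of 21 and 20 (0 and 4).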

How the data were processed

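Poly(A) RNA of 3 preparations from each of 17 mice gave 51 libraries of paired reads. According to the authors, reads were made with bcl2fastq 2.17, trimmed with Cutadapt 1.8, mapped to mm10 with STAR 2.5.0a, cleared of duplicates with Picard 1.141 and counted with HTSeq 0.6.1p1, and the deposited values are whole counts per gene symbol without normalization. Libraries the authors excluded are not analysed here. The strand setting and annotation release were not given in the sources used here, so reads of Sema3e, Sema4c, Sema5a, Sema6d, Plxna1, Plxna4, Plxnb1 and Nrp2 cannot be told apart from those of antisense genes over them. The 5 summary entries of each file were left out, of which reads on no feature were 11.3 to 41% of all entries.

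CIE was compared with control in a separate edgeR 4.0.16 fit (R 4.3.3) for each preparation, with filterByExpr, TMM factors and the quasi-likelihood test, and p-values were adjusted by Benjamini-Hochberg over the genes tested (threshold 0.05). A single fit of the 6 groups gave the preparations and their responses. SE is the log2 fold change divided by the root of F, without its sign. Within a group each library comes from another mouse. Exon lengths and coordinates are from GENCODE on GRCm38, and promoters from RefSeq on GRCm38.p6, where 26 of the 31 members had a window. The 31 members and the gene lists were chosen with earlier results of these data known. Each member is accounted for, with per-library ranges for members called after CIE, Sema4a, Sema5b and the 3 highest members per length in each preparation. Of the pathway lists up to 4 called genes are named, and of the marker lists the 2 highest genes, apart from some that are not reported here.

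Alternatives were DESeq2 1.42.0, RLE factors, library totals, every gene with a count, genes without a 0 count, a term for the range of mouse numbers, omission of each mouse, the mouse as a replicate block, and fits of the control libraries of 2 preparations. Omission of the mice numbered under 10, and of the CIE microglia libraries 23 and 41, was added after seeing the data. The 3 preparations of a number come from the same mouse, so the numbers pair them, and the median correlation of their deviations from group means was 0.112 (astrocytes and homogenate), 0.149 (astrocytes and microglia) and 0.039 (microglia and homogenate). In simulated data a true log2 change of 0.5 was recovered for 52% of genes in astrocytes, 28% in microglia, 40% in homogenate and 20% in the response of microglia against astrocytes, and a change of 1 for 88%, 82%, 84% and 70%. Of the calls in those simulations 7.1%, 0.66%, 6.51% and 3.73% were genes without a true change. Between CIE and control the library totals had p = 0.11, 0.993 and 0.658 in astrocytes, microglia and homogenate (two-sided exact permutation test, 24310 splits).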

Additional observations from a re-analysis of the deposited data

Results flagged for a closer look

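Within groups of 8 or 9 libraries, 11 of 170 gene and group pairs held a library far from the others relative to the range of the group, a gap that chance alone gives in about 1 in 20 groups. In control astrocytes mouse 20 had the lowest Sema3d, at 7.78 CPM, and mouse 05 the highest Plxna2, at 101.4 CPM. In CIE astrocytes mouse 26 had the highest Sema4f, at 6.12 CPM, and mouse 24 the highest Plxnb3, at 438 CPM. In microglia mouse 22 had the highest control values of Sema6d, at 151 CPM, and of Plxnb1, at 68.2 CPM, and mouse 41 the highest CIE value of Plxnc1, at 29.5 CPM. In homogenate mouse 22 had the highest control Sema3g, at 23.01 CPM. There the CIE mouse 41 had the lowest Sema6a, at 23.8 CPM, and the lowest Plxnb3, at 15.9 CPM, and the CIE mouse 23 had the highest Nrp1, at 72.0 CPM.

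The response of Sema4a to CIE differed between preparations by the interaction test. It was 1.37 higher on the log2 scale in microglia than in astrocytes (adjusted p = 0.00665, edgeR) and 1.17 higher than in homogenate (adjusted p = 0.0142).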

How the results depend on the processing

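Counts of members called after CIE changed with the processing. In astrocytes the count was 4, 7 with a term for the range of mouse numbers (adding Sema4b, Sema7a and Plxna3) and 2 to 6 without 1 mouse. In microglia it was 0, but 4 with that term, 2 with DESeq2, 3 without the mice numbered under 10 and 0 to 4 without 1 mouse. In homogenate it was 0, but 1 with that term, 1 with DESeq2 (Sema3c) and 0 to 1 without 1 mouse. For the response of astrocytes against homogenate it was 0, but 1 with DESeq2 (Sema5b), 1 without the CIE microglia libraries 23 and 41 and 0 to 1 without 1 mouse. For microglia against homogenate it was 1, but 2 with DESeq2, 0 without libraries 23 and 41 and 0 to 2 without 1 mouse. For microglia against astrocytes it was 1, but 2 over genes without a 0 count, 3 with DESeq2, 2 without the mice numbered under 10 and 1 to 2 without 1 mouse. The causes were not tested. These counts are given without the share of all genes called in the same fits. A higher or lower count is therefore not a result about the members.

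Counts between control preparations (26, 26 and 25) stayed within 1.5 times under each alternative. As 31 is the most possible, only a loss of many calls could have left that bound. These counts were 26 to 27, 26 to 27 and 24 to 27 without 1 mouse. With the mouse as a replicate block they were 26, 27 and 25, and the responses 0, 1 and 1, and Sema6d in microglia against homogenate was the 1 call that changed. Of 657 alternative values of single members 608 kept their direction and side of the threshold, 12 lost the call, 37 gained it and 0 reversed. These values belong to 27 results, those with the smaller adjusted p in the main fits and those of Sema4a and Sema5b. That choice made reversals unlikely, so the count does not describe the other members. Without 1 mouse, Plxnc1 in microglia ranged from -0.08 to 0.58 and Plxnb2 in astrocytes from -0.06 to 0.09. In microglia 7 of the 31 members, Sema5b among them, were too low to be tested.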
